A study of Mus musculus with 20 samples.

Results

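Egr1, Egr2, Egr3, Nr4a1, Nr4a2, Ier2, Ier3, Atf3, Dusp1 and Btg2 are immediate early genes outside the Fos and Jun family. They were taken by symbol from the 24062 gene symbols counted in sorted dermal lymphatic endothelial cells (LECs), so 10 of 24062 genes are described, and all 10 passed the filter on low counts that left 19209 genes to test. LECs, gated as podoplanin+CD31+ cells, came from the ear skin of wild-type mice (labelled C57BL/6) at postnatal day 56, kept under 12 h of light and 12 h of dark. Tissue was taken at ZT1, ZT7, ZT13 or ZT19, where ZT (zeitgeber time) counts the hours since light onset. Each of the 5 replicates per time point pooled 4 ears from 2 mice, so n counts pools. By the labels, the skin of all 4 groups was digested with enzymes for 30 min before sorting.

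Immediate early genes are transcribed within minutes of a stimulus, without new protein synthesis, by factors that already sit in the cell and are switched on by kinase cascades and cAMP. Their RNAs are short-lived, and several of their proteins feed back on the same kinases. Flow, growth factors, stress and the handling of tissue are all known to induce them, and in endothelial cells they are used as a sign of recent signalling.

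In these libraries 4 members had their highest mean at ZT13 and 3 at ZT19, whereas the lowest mean of 6 members was at ZT7. Mean Dusp1 was 3.78-fold higher at ZT19 than at ZT1, mean Egr3 3.12-fold higher at ZT1 than at ZT7, mean Btg2 3.08-fold higher at ZT13 than at ZT7 and mean Egr2 3.05-fold higher at ZT1 than at ZT13. Ier2 (2.80-fold) and Egr1 (2.20-fold) had a low at ZT7 and a high at ZT19. In edgeR's quasi-likelihood F-test across the 4 time points, 0 of the 10 members had a Benjamini-Hochberg adjusted p under 0.05, against 0.422% of all 19209 genes. Of the 10 members, 4 had an unadjusted p under 0.05, against 15.7% of all genes, and DESeq2 called 2, Dusp1 and Btg2, against 3.77% of the genes it tested. The values per library are shown in the plot of members by time point.

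**Figure D1:**
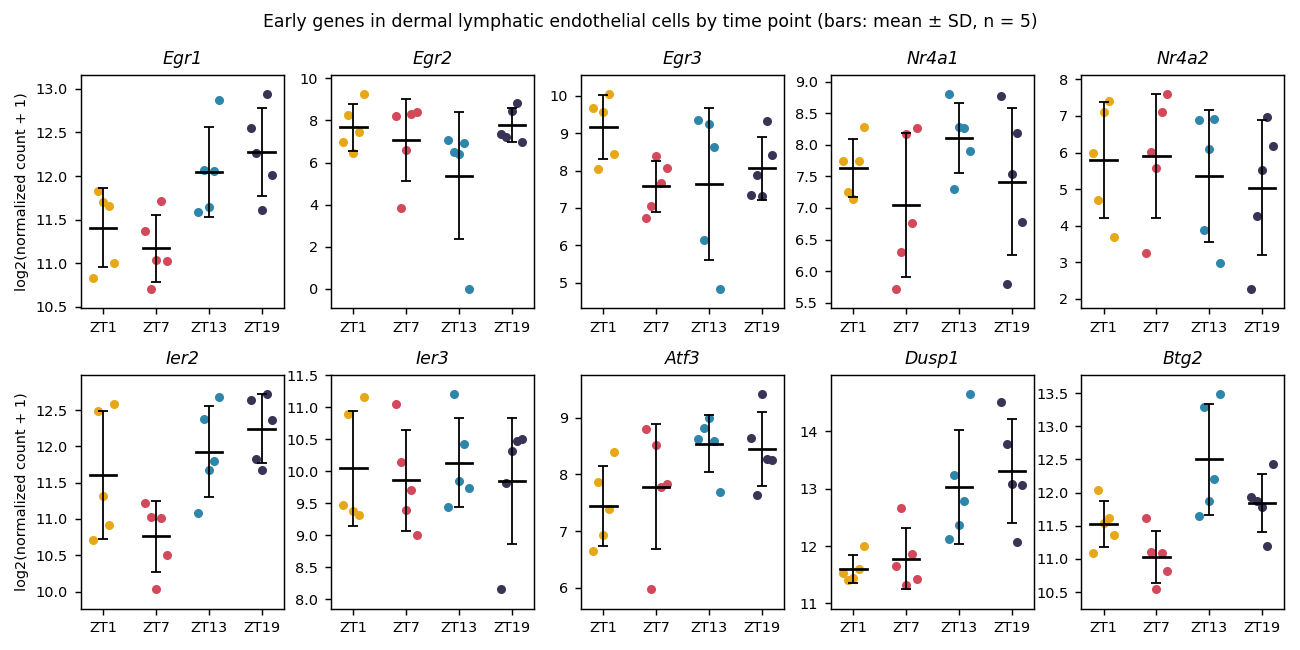
Level of each of the 10 members as log2(normalized count + 1) on the vertical axis, by time point on the horizontal axis. Each point is 1 library, with the mean and SD of the 5 libraries in black. Dusp1 and Btg2 are higher at ZT13 than at ZT7 on average, while Ier3 has nearly the same mean at all 4 time points.

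Libraries held from 4475111 to 42002363 reads on genes (median 9379794). Of the reads on either a gene or no gene, 20.2% to 29.5% fell on genes in ZT1 libraries, 12.7% to 62.3% in ZT7, 20.1% to 79.9% in ZT13 and 35.0% to 81.6% in ZT19 libraries. ZT13 replicate 5 (79.9%) and ZT19 replicate 1 (81.6%) stood apart from the rest. All ZT1 libraries lay under 30% and all ZT19 libraries above it, so in a comparison of ZT1 with ZT19 this property and the time point cannot be told apart. The summed level of 6 LEC markers was 41467 to 102976 normalized counts per library and none of the 6 was at 0. The summed level of 12 keratinocyte markers, which a clean gate would leave near 0, was 35984 to 72900 at ZT1, 63569 to 179942 at ZT7, 11446 to 31777 at ZT13 and 94452 to 190315 at ZT19, with none at 0 in all libraries of a time point. In RNA of sorted bulk cells, fewer cells of a type and less RNA per cell cannot be told apart.

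Promoter sequence was available for 7 members, and 4 are shown as examples of the matches described next, with the 5′ end first. Each run covers the bases from 250 to 51 before the start of transcription in the RefSeq promoter table (GRCm38.p6), in lower case with the matched motifs in capitals.
Dusp1, chr17:26508523-26508722, minus strand, with a full cAMP response element (CRE, TGACGTCA), a further CRE core (TGACG) and an E-box (CACGTG) in capitals: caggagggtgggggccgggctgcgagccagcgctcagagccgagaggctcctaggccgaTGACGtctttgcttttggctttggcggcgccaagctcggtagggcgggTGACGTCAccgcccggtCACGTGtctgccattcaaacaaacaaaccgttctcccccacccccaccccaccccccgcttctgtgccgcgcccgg
Btg2, chr1:134079206-134079405, minus strand, with a full CRE in capitals: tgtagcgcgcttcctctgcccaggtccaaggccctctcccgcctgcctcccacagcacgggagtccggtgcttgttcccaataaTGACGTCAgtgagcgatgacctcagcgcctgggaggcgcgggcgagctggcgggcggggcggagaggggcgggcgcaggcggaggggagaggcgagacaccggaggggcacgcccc
Nr4a1, chr15:101266596-101266795, plus strand, with CRE cores and an EGR site (GCGGGGGCG, read on the other strand) in capitals: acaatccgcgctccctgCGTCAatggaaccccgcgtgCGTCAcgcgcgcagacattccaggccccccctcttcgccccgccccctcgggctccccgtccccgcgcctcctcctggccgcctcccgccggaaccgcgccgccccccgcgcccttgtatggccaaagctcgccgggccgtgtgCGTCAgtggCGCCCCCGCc
Egr2, chr10:67537619-67537818, plus strand, with CRE cores and a CArG box, the core of the serum response element, in capitals: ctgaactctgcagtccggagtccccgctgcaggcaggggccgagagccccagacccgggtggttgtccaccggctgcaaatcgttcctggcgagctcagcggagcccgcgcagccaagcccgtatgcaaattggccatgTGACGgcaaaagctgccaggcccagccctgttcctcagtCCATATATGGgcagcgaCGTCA

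Motifs were searched on both strands of the whole 300-base window. The full CRE was found in 2 of the 7 members, Dusp1 and Btg2, and in 2.03% of the 27025 genes in the table. In Dusp1 it lay at -143 to -136 from the start and in Btg2 at -166 to -159. The CRE core, which every full CRE contains, was found in 6 of the 7 members (Egr2, Nr4a1, Nr4a2, Atf3, Dusp1 and Btg2) and in 23% of genes. Nr4a1 and Nr4a2 held 4 cores each, 1 of those of Nr4a1 past the end of the run printed. The CArG box was found in Egr2 alone and in 1.81% of genes, and the EGR site in Nr4a1 alone and in 3.31% of genes. The E-box, the letters to which CLOCK and BMAL1 bind, was found in Egr2 (in a window other than the one printed) and Dusp1 and in 8.09% of genes. The AP-1 site (TGANTCA), the NBRE (AAAGGTCA) and the D-box (TTATGNAA) were in 0 of the 7 members and in 8.97%, 1.7% and 3.99% of genes. Egr2 has 5 windows in the table, which gives it more places to match. A match says only that these letters are there.

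By level the members fell into 5 abundant and 5 scarce genes. Per kilobase of exon (GENCODE M21, mean ± SD over 20 libraries), Ier2 had 2408 ± 1264 normalized counts, Dusp1 2201 ± 2006, Btg2 1425 ± 931, Ier3 1015 ± 538 and Egr1 829 ± 388. Atf3 followed with 142 ± 71.2, Egr3 with 85.8 ± 64.2, Nr4a1 with 62.5 ± 33.0, Egr2 with 59.3 ± 45.7 and Nr4a2 with 17.8 ± 14.6. Neighbours in this order overlapped within their SD in every case but the step from Egr1 to Atf3, and single libraries of Ier3 (lowest 251) and Atf3 (highest 316) overlapped even across that step. Most members are short genes: 6 of 10 span under 10000 bp, against 28.5% of the tested genes with a match in the annotation (94.9% had one). Ier2 is 1 exon of 1522 bp on chr8:84661331-84662852, and Ier3 spans 1240 bp on chr17:35821684-35822923. The annotated span of Dusp1 (chr17:26505590-26562128) is longer because some transcripts start far upstream, inside Ergic1 on the opposite strand. The exons of Dusp1 and Ergic1 share 11 bp, and the library kit does not mark strand.

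Dusp1 encodes a nuclear phosphatase that switches off MAP kinases. At ZT1 the 5 libraries had 2943, 2704, 2777, 3104 and 4119 normalized counts. At ZT7 they had 3204, 6485, 2549, 3736 and 2735. At ZT13 they had 4463, 9734, 5296, 7051 and 25685. The ZT1 libraries lay close together, those of ZT13 all lay above them, and ZT13 replicate 5 was far above its group. At ZT19 the values were 23481, 14067, 8726, 4325 and 8586, again all above every ZT1 library. ZT7 overlapped with each of the other 3 time points.

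The fitted difference in Dusp1 was 1.92 ± 0.48 (log2, SE) between ZT19 and ZT1, with an adjusted p of 0.0848 by edgeR and of 0.00231 by DESeq2. Against ZT1, the difference at ZT13 was 1.74 ± 0.48 (edgeR adjusted p = 0.460, DESeq2 adjusted p = 0.0136). Against ZT7, the difference at ZT19 was 1.66 ± 0.48 (edgeR adjusted p = 0.107, DESeq2 adjusted p = 0.0114). Groups of 5 that did not overlap, with the later time higher, were found for Dusp1 in both comparisons with ZT1, which holds for 1 of 10 members each time and for 0.489% of genes between ZT13 and ZT1 and 2.38% between ZT19 and ZT1. The 24-h cosinor fit of Dusp1 had its peak at 15.9 h and a log2 amplitude of 1.20 (edgeR adjusted p = 0.127, DESeq2 adjusted p = 0.00139). For a difference anywhere among the 4 time points, edgeR's adjusted p for Dusp1 was 0.0622, and it lay between 0.0273 (without ZT19 replicate 4) and 0.125 (without ZT1 replicate 2) when 1 library was left out.

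Dusp1 moved with the share of reads on genes more closely than any other member. Taken as log2 odds (reads on a gene against reads on none), the share had a Pearson's r of 0.86 with Dusp1 across the 20 libraries (permutation p = 2.0e-05, adjusted p = 0.000200 over 10 members) and a Spearman's rho of 0.71 (permutation p = 0.000600, adjusted p = 0.00600). Centred by time point, r was 0.87, and with the 2 libraries of most extreme share dropped it was 0.73. It was 0.07 over the 11 libraries under 30% and 0.86 over the 9 at 30% or more. With that share as a covariate, the difference between ZT19 and ZT1 was 0.57 (edgeR adjusted p = 0.711) between ZT13 and ZT1 1.03 (adjusted p = 0.517) and between ZT19 and ZT7 0.44 (adjusted p = 0.813). With keratinocyte and fibroblast scores as covariates these 3 differences were 2.51 (edgeR adjusted p = 0.0209), 0.58 (adjusted p = 0.792) and 1.64 (adjusted p = 0.0297). That fit called 608 of all genes between ZT19 and ZT1 and 1787 between ZT19 and ZT7, against 3 in each comparison without the scores. Over only the libraries under 30%, Dusp1 had a median of 2943 normalized counts in the 5 libraries of ZT1 and 5296 in 3 libraries of ZT13, and the fitted difference over these libraries was 0.80 (edgeR adjusted p = 0.392). Without ZT13 replicate 5 the difference between ZT13 and ZT1 was 1.08.

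Btg2 encodes an antiproliferative protein that recruits deadenylases to mRNA and is also a target of p53. At ZT1 its normalized counts were 2183, 4202, 2994, 3126 and 2617, and at ZT7 they were 3124, 2192, 1489, 2166 and 1809.7. At ZT13 they were 3194, 10034, 3753, 4737 and 11448, and at ZT19 3892, 3766, 3533, 2354 and 5545. All 5 libraries of ZT13 exceeded all 5 of ZT7, and replicates 2 and 5 of ZT13 were the highest of the 20. The lowest ZT13 library exceeded the highest ZT7 library by little, 3194 against 3124. Btg2 was the 1 member of 10 without overlap between these time points, against 0.255% of all genes.

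Between ZT13 and ZT7, Btg2 differed by 1.62 ± 0.38 (log2, SE), with an adjusted p of 0.112 by edgeR and of 0.00109 by DESeq2. It was higher at ZT13 than at ZT1 by 1.13 ± 0.38 (edgeR adjusted p = 0.582, DESeq2 adjusted p = 0.0407). Its value at ZT19 was below that at ZT13 by a log2 difference of -0.80 ± 0.37 (edgeR adjusted p = 0.239), while the fitted differences of Egr1, Ier2 and Dusp1 between these times were 0.22, 0.27 and 0.18. Whether Btg2 differs from them in this was not tested. With keratinocyte and fibroblast scores as covariates, the difference between ZT13 and ZT7 was 0.54 and that between ZT13 and ZT1 0.19. The keratinocyte sum was lowest at ZT13, where every library was below every library of the other 3 time points, and its part in the result was not tested beyond that fit. Fitted with the share on genes as covariate, the difference was 1.29 (edgeR adjusted p = 0.181), and over the libraries of 30% or more it was 2.14 (edgeR adjusted p = 0.521, 2 libraries per time point), and over those under 30% it was 1.11 (edgeR adjusted p = 0.9999, 3 libraries per time point).

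**Figure D2:**
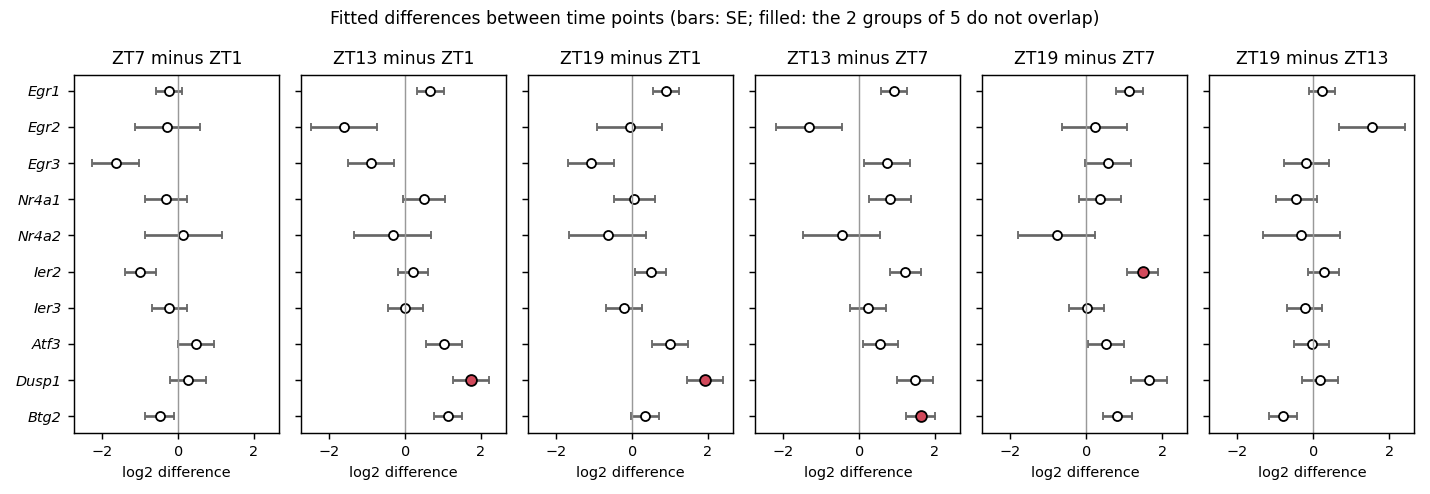
Fitted log2 differences of the 10 members in each of the 6 comparisons of time points (horizontal axis), with the SE as bars. Filled points mark comparisons in which the 5 libraries of one time point all exceeded the 5 of the other, which were Dusp1 against ZT1 at ZT13 and ZT19, Btg2 between ZT13 and ZT7, and Ier2 between ZT19 and ZT7.

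Ier2 encodes a small nuclear protein of the early growth factor response. Its normalized counts at ZT1 were 1681, 5769, 2546, 1941 and 6116. At ZT7 they were 2385, 2089, 1045, 2066 and 1455. At ZT13 they were 2162, 5333, 3275, 3566 and 6591. ZT7 had the lowest mean, whereas ZT1 had replicates 2 and 5 far above the other 3. At ZT19 the values were 6382, 3629, 3261, 6728 and 5281, all above every library of ZT7. The difference between ZT19 and ZT7 was 1.48 ± 0.41 (log2, SE), with an adjusted p of 0.107 by edgeR and of 0.00997 by DESeq2, and 0.921% of all genes were without overlap in this direction.

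The difference in Ier2 between ZT13 and ZT7 was 1.21 ± 0.41 (edgeR adjusted p = 0.833), and between ZT7 and ZT1 it was -0.997 ± 0.40 (edgeR adjusted p = 0.867). The share of reads on genes moved with Ier2 (r = 0.56, permutation p = 0.00966, adjusted p = 0.0205, and rho = 0.57, permutation p = 0.00913, adjusted p = 0.0269), and r was 0.43 when centred by time point and 0.41 with the 2 most extreme libraries dropped. With the share as a covariate, ZT19 exceeded ZT7 by 1.11 (edgeR adjusted p = 0.333), and with keratinocyte and fibroblast scores as covariates by 1.70 (edgeR adjusted p = 0.0292), in the fit that called 1787 of all genes. Over only the libraries of 30% or more, 2 of ZT7 and 5 of ZT19, the difference was 1.21, with no adjusted call.

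The 3 Egr genes encode zinc-finger transcription factors that bind the same GC-rich letters, with Egr1 the classic serum-induced member. Egr1 had normalized counts of 1825, 3640.3, 3343, 3227 and 2047 at ZT1 and of 2654, 1667, 2101, 3363 and 2089 at ZT7. At ZT13 it had 3086, 4284, 3197, 4264 and 7504, and at ZT19 6008, 4933, 3130.3, 7861 and 4131. The later 2 time points were higher on average, and single libraries of every pair overlapped. Between ZT19 and ZT7 the difference was 1.13 ± 0.35 (log2, SE), with an adjusted p of 0.107 by edgeR and of 0.0410 by DESeq2. With the share as a covariate it was 0.94 (edgeR adjusted p = 0.359). With the keratinocyte and fibroblast scores it was 1.22 (edgeR adjusted p = 0.0314), in the fit that called 1787 of all genes. Within time points Egr1 was the steadiest member, with an SD of 0.47 on the log2 scale, lower than in most of the 387 genes of like level, meaning a mean within 0.5 on the log2 scale (percentile 26.9).

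Egr3 had its highest mean at ZT1. It had 811, 263, 759, 1059 and 350 normalized counts at ZT1 and 104, 133, 334, 203 and 265 at ZT7. At ZT13 it had 648, 70.0, 605, 393 and 27.4, and at ZT19 161, 236, 158, 646 and 338. ZT1 held the 3 highest libraries of the 20, and at ZT13 replicates 2 and 5 were far below the other 3. The same 2 libraries were the highest in Btg2. Between ZT7 and ZT1 Egr3 differed by -1.64 ± 0.62 (log2, SE, edgeR adjusted p = 0.836, DESeq2 adjusted p = 0.527), and by -2.45 with keratinocyte and fibroblast scores as covariates (edgeR adjusted p = 0.0870). Egr2 had 123, 304, 85.7, 176 and 611 normalized counts at ZT1 and 299.9, 13.1, 95.2, 315 and 338 at ZT7. At ZT13 it had 133, 89.1, 85.3, 119 and 0, and at ZT19 166, 149, 346, 453 and 126. The single value of 0 came from the deepest library, ZT13 replicate 5, where a count of 0 allows up to 0.648 normalized counts (3 counts), for counting error only. Between ZT13 and ZT1 Egr2 differed by -1.61 ± 0.88 (edgeR adjusted p = 0.991), and by -1.03 without ZT1 replicate 5. Both genes spread more within time points than other genes of like level, Egr2 with an SD of 1.93 (percentile 94.9 of 1791 genes) and Egr3 with 1.23 (percentile 93.4 of 2552 genes). The SD of Egr2 includes the 0 of ZT13 replicate 5, which widens it, and the percentile without that library was not computed.

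Nr4a1 and Nr4a2 encode orphan nuclear receptors that act without a known ligand and are induced by cAMP and calcium. From ZT1 through ZT19, mean Nr4a1 was 206 ± 68.2, 166 ± 122, 291 ± 107 and 214 ± 151 normalized counts (SD, n = 5). Its order was ZT13, ZT19, ZT1 and ZT7, and every neighbouring pair overlapped. The difference between ZT13 and ZT7 was 0.81 ± 0.55 (log2, SE, edgeR adjusted p = 0.9999). Nr4a2 was the scarcest member, with 81.6 ± 69.8, 89.7 ± 73.9, 65.3 ± 54.5 and 52.5 ± 47.5 in the same order, and between 5 and 149 raw counts per library. The SE of its differences was near 1.0 on the log2 scale, so a log2 difference of 1 lay within about 1 SE. Its difference between ZT19 and ZT7 was -0.78 ± 1.02 (edgeR adjusted p = 0.704), ran from -1.37 (without ZT19 replicate 4) to -0.29 (without ZT7 replicate 5) with 1 library left out, and turned to 0.56 in the fit with the share as covariate (adjusted p = 0.932).

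Atf3 encodes a stress-induced transcription factor of the ATF/CREB family, and Ier3 a protein that modulates survival and ERK signalling. From ZT1 through ZT19, mean Atf3 was 191 ± 95.4, 264 ± 149, 389 ± 114 and 378 ± 183 normalized counts (SD, n = 5). Between ZT13 and ZT1 it differed by 1.03 ± 0.47 (log2, SE, edgeR adjusted p = 0.874), and each neighbouring pair in the order overlapped. Ier3 was the flattest member in its means, with 1237 ± 787, 1053 ± 639, 1239.6 ± 672 and 1063 ± 486. Its fitted 24-h amplitude was 0.01 (log2), 0.19 without ZT13 replicate 2 and 0.36 with keratinocyte and fibroblast scores as covariates. The libraries within a time point still ran widely, from 284 to 1446 at ZT19 and from 696 to 2352 at ZT13, and the within-time-point SD of 0.85 was at percentile 90.0 of the 1860 genes of like level.

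Over the members as a list, 8 of 10 were higher at ZT13 than at ZT7 in the fit (7 by mean log2 value with total counts as the only scaling) and 9 of 10 at ZT19 than at ZT7 (8 by mean log2 value in each scaling). Their median log2 difference was 0.78 between ZT13 and ZT7, against -0.07 over all genes tested, and 0.54 between ZT19 and ZT7, against -0.20. Between ZT7 and ZT1 7 of 10 were lower, with a median of -0.27 against 0.05. With total counts as the only scaling, 5 of 10 were lower there by mean log2 value. The 2 comparisons with ZT7 as the earlier time share its libraries.

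Between pairs of time points edgeR called 0 of 10 members throughout. From ZT1 to ZT7, 2 members (Egr3 and Ier2, both lower at ZT7) had an unadjusted p under 0.05, against 4.97% of all genes (4.19% lower at ZT7). DESeq2 called 0 (0.0854% of its genes) and edgeR called 0.00521% of all genes. From ZT1 to ZT13, 3 members had such a p (Dusp1, Btg2 and Atf3, higher at ZT13), against 5.37% of all genes (1.53% higher at ZT13). DESeq2 called 2 (0.79%) and edgeR called 0.0208% of all genes. From ZT1 to ZT19, 3 members had such a p (Dusp1, Egr1 and Atf3, higher at ZT19), against 21.6% of all genes (7.25% higher at ZT19). DESeq2 called 1 (10.8%) and edgeR called 0.0156% of all genes. In this last comparison the share of all genes was large too. From ZT7 to ZT13, 4 members had such a p (Dusp1, Btg2, Ier2 and Egr1, higher at ZT13), against 2.59% of all genes (1.16% higher at ZT13). DESeq2 called 1 (0.639%) and edgeR called 0.0937% of all genes. These 4 members are the abundant ones other than Ier3. From ZT7 to ZT19, 4 members had such a p (Dusp1, Ier2, Egr1 and Btg2, higher at ZT19), against 19.7% of all genes (6.7% higher at ZT19). DESeq2 called 3 (12.2%) and edgeR called 0.0156% of all genes. From ZT13 to ZT19, 1 member had such a p (Btg2, lower at ZT19), against 19.2% of all genes (11.9% lower at ZT19). DESeq2 called 0 (9.68%) and edgeR called 0.588% of all genes. For the 24-h curve edgeR called 0 members, against 0.0312% of all genes, with 4 at an unadjusted p under 0.05 (9.23% of all genes), and DESeq2 called 1 (0.791% of the genes it tested).

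Egr1, Ier2, Dusp1 and Btg2 varied together from library to library. For the abundant Ier3, r with these 4 genes ran from -0.11 to 0.39 with 0 of 4 pairs past the test, and its r with Ier2 was 0.51 when centred by time point. Centred by time point, the 6 pairs among these 4 genes had r between 0.22 (Egr1 with Dusp1) and 0.62 (Dusp1 with Btg2), and 0 of the 6 had an adjusted p under 0.05 (permutation test). Of the 45 pairs of members, 9 had an adjusted p under 0.05 for Pearson's r across the 20 libraries (permutation test). How often pairs of other genes reach such an r was not computed, so this is no trait particular to the members. Centred by time point, the highest r with any tested gene was 0.79 for Egr1, 0.93 for Ier2, 0.93 for Dusp1 and 0.87 for Btg2. In each case that gene was not a member. The 6 pairs among Egr1, Ier2, Dusp1 and Btg2, a grouping made after the values were seen, had r between 0.60 and 0.71, and all 6 were among the 9. For Egr1 and Ier2, r was 0.71 (permutation p = 0.000520, adjusted p = 0.0121) and rho 0.72 (permutation p = 0.000710, adjusted p = 0.0190). Centring by time point gave r = 0.50, dropping the 2 most extreme libraries 0.62. For a pair, these are the 2 libraries farthest from the median of its first gene, in the order of the opening list of members. They therefore differ between pairs. For Dusp1 and Btg2, r was 0.69 (permutation p = 0.00108, adjusted p = 0.0121) and rho 0.69 (permutation p = 0.00112, adjusted p = 0.0190), and both centring by time point and dropping the 2 most extreme libraries gave r = 0.62.

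Egr3 and Nr4a2 also varied together, with r = 0.68 (permutation p = 0.00105, adjusted p = 0.0121) and rho = 0.63 (permutation p = 0.00313, adjusted p = 0.0282). Centred by time point their r was 0.77, and with the 2 most extreme libraries dropped 0.57. The other 2 of the 9 pairs were Dusp1 with Egr3 (r = -0.61) and Dusp1 with Nr4a2 (r = -0.59). All 12 pairs between Egr1, Ier2, Dusp1 and Btg2 on one side and Egr2, Egr3 and Nr4a2 on the other had r below 0, from -0.61 to -0.08, and within time points from -0.84 to -0.11. Without ZT13 replicate 5, 0 of the 45 pairs had an adjusted p under 0.05. With the 2 libraries farthest in the first gene of each pair dropped, the 6 pairs among Egr1, Ier2, Dusp1 and Btg2 had r between 0.52 and 0.72. The libraries dropped were not the same in each pair, and Ier2 with Dusp1 and Ier2 with Btg2 kept ZT13 replicate 5. With the log2 odds of the share on genes regressed out, 0 of 45 passed as well, and the 6 pairs among Egr1, Ier2, Dusp1 and Btg2 then had r between 0.28 and 0.59, while the 12 pairs with Egr2, Egr3 and Nr4a2 ran from -0.32 to 0.27 and no longer shared a sign. With the 2 libraries farthest in Egr1 dropped, r was 0.13 for Egr1 with Egr2. With the 2 farthest in Egr2 dropped, r was 0.25 for Ier2 with Egr2.

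**Figure D3:**
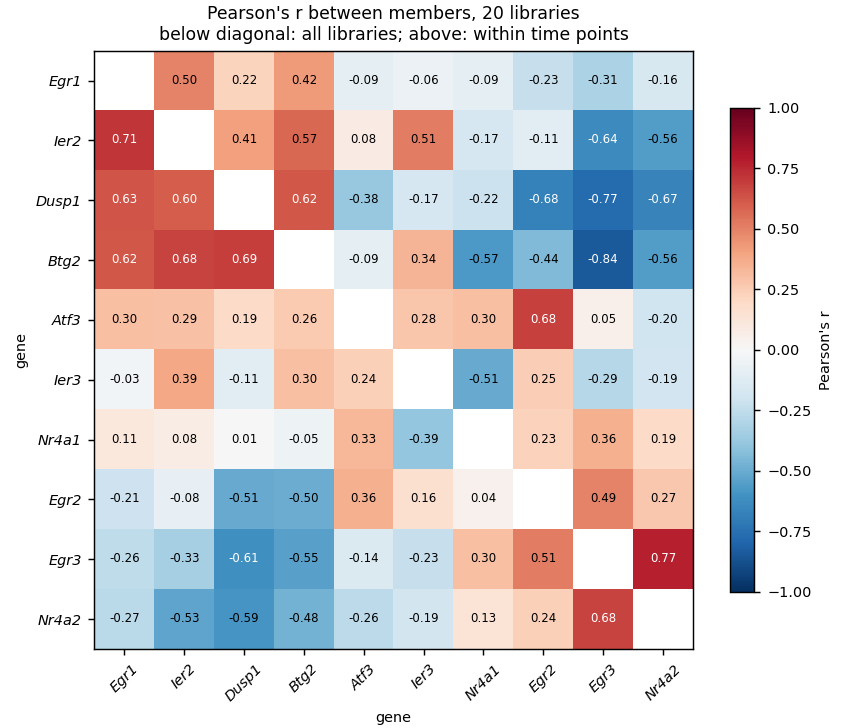
Pearson's r between each pair of members on both axes, from log2(normalized count + 1) in 20 libraries. Below the diagonal are values over all libraries and above it values within time points. The block of Egr1, Ier2, Dusp1 and Btg2 is positive on both sides, and its values with Egr2, Egr3 and Nr4a2 are negative on both sides.

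Of the 10 members, 7 had an adjusted p under 0.05 for r with the log2 odds of the share on genes, 4 with r above 0 (Egr1, Ier2, Dusp1 and Btg2) and 3 below 0 (Egr2, Egr3 and Nr4a2). At an r of at least 0.5 were 4 of the 10 members and 10.4% of all genes tested, and at -0.5 or less 2 members (Egr3 and Nr4a2) and 39.7% of all genes, so a negative r of this size was common here. For Nr4a2, r was -0.62 (permutation p = 0.00389, adjusted p = 0.0177) and rho -0.57 (permutation p = 0.0108, adjusted p = 0.0269), and r was -0.65 when centred by time point and -0.36 with the 2 most extreme libraries dropped. Without ZT13 replicate 5 only 1 member, with r above 0, passed, and without ZT7 replicate 5 3 did. The share moved with the level of these members, and its part in the differences between time points was not tested beyond the fits with it as a covariate. Summed marker levels of other cell types also moved with Dusp1 over the 20 libraries, given here as a description. The r was -0.70 for leukocyte, -0.68 for mural, -0.57 for melanocyte and Schwann cell and 0.48 for blood endothelial markers, and -0.10 for keratinocyte and 0.04 for fibroblast markers. The part of these cell types in the result was not tested beyond the fit with keratinocyte and fibroblast scores.

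**Figure D4:**
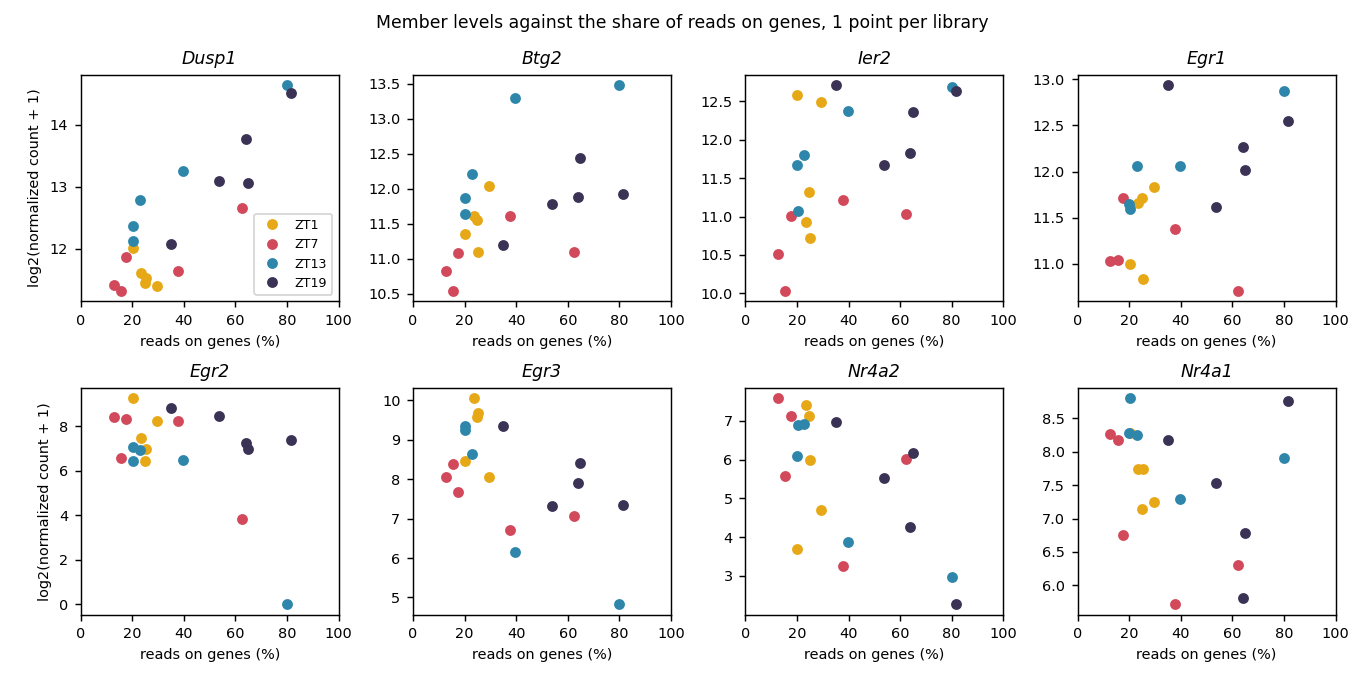
Level of 8 members as log2(normalized count + 1) on the vertical axis against the percentage of reads on genes on the horizontal axis, with 1 point per library coloured by time point. Dusp1 is highest in ZT13 replicate 5 and ZT19 replicate 1, the 2 libraries over 75%, where Nr4a2 is lowest together with 1 library of ZT7.

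Other early genes and the factors upstream were compared in the same fit, from lists written with earlier results known. In the Fos and Jun family, 2 of the 6 tested genes passed among the 4 time points, Fosb (adjusted p = 0.0139) and Fos (adjusted p = 0.0236). Fos was higher at ZT13 than at ZT7 by 1.97 ± 0.36 (log2, SE, edgeR adjusted p = 0.0202), and Fosb at ZT19 was below ZT13 by a difference of -2.22 ± 0.41 (edgeR adjusted p = 0.00665). With keratinocyte and fibroblast scores as covariates, edgeR called 0 of all genes in both of these comparisons, in place of 18 and 113. Of 38 further early genes 3 passed among the 4 time points, against the 0.422% of all genes given above. These were Cebpd (edgeR adjusted p = 0.0152), a C/EBP transcription factor, Zfp36 (edgeR adjusted p = 0.0236), which binds AU-rich mRNA and speeds its decay, and Cyr61 (edgeR adjusted p = 0.0486), a matricellular protein. Cebpd and Zfp36 had their highest mean at ZT13, as did Nr4a1, Ier3, Atf3 and Btg2 among the members, and Cyr61 at ZT19. Cebpd also passed for the 24-h curve (amplitude 0.93, peak 13.1 h, edgeR adjusted p = 0.0333).

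Between pairs of time points, Cebpd was higher at ZT13 than at ZT1 by 1.86 ± 0.32 (edgeR adjusted p = 0.0166) and Zfp36 higher at ZT13 than at ZT7 by 1.61 ± 0.32 (edgeR adjusted p = 0.0296). The difference of Zfp36 was close in size to that of Btg2 in the same comparison (1.62 ± 0.38). Rhob was lower at ZT19 than at ZT13, with a difference of -2.23 ± 0.53 (edgeR adjusted p = 0.0424). None of these calls of Cebpd, Zfp36 and Rhob remained with keratinocyte and fibroblast scores as covariates. That fit called 0 of all genes between ZT13 and ZT1, between ZT13 and ZT7 and between ZT19 and ZT13, in place of 4, 18 and 113. Over the libraries, r with the log2 odds of the share on genes was -0.89 for Rhob and 0.79 for Cyr61, and the part of the share in these calls was not tested. The median log2 difference between ZT13 and ZT7 was 1.57 over the 6 tested Fos and Jun genes and 0.43 over the 38 further genes, beside 0.78 over the members. Of 18 upstream factors and co-repressors, among them Srf, Creb1 and the Egr co-repressors Nab1 and Nab2, edgeR called 0 in any comparison, with 0 at an unadjusted p under 0.05 among the 4 time points (15.7% of all genes).

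Genes whose level within time points ran most like the mean of the 10 members (Pearson's r over 20 libraries, each gene centred per time point, no test) were Kcnd3os (r = 0.92), C330021F23Rik (r = 0.90), Chrna3 (r = 0.90), Gabra5 (r = 0.90) and Setd1b (r = 0.89). The first 4 had mean normalized counts of 17.0, 20.7, 65.1 and 21.3, and Setd1b had 527. That mean weights each member alike on the log2 scale, so the members with the largest spread, Egr2 and Nr4a2, count most in it.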

How the data were processed

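RNA of sorted LECs was amplified as full-length cDNA without molecular identifiers and sequenced (single-end, 100 nt). The authors aligned the reads to mm10 with STAR and counted them on genes with HTSeq, and the deposited values are raw counts per gene symbol. The counts of reads on no gene, ambiguous or not aligned were kept out of library sizes (reads on no gene were 11.8% to 32.9% of the rows' total). The authors' processing notes also name DESeq2.

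Samples were grouped by the labels alone. Counts were normalized by TMM and fitted over all 20 libraries with edgeR 4.0.16 in R 4.3.3 (quasi-likelihood F-test, filter on low counts), among the 4 time points, between each of the 6 pairs and for a 24-h cosinor curve. The SE is the log2 difference divided by the square root of F. Genes were called at 0.05 after Benjamini-Hochberg adjustment across 19209 genes. Normalized counts are counts scaled by TMM to a common library size, and log2 values used a pseudocount of 1. The log2 odds compare reads on a gene with reads on none. Correlations used 100000 permutations of the libraries (NumPy 2.4.6).

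All 10 members are named. Other genes are named where they passed the threshold in 1 of 3 written lists, or where they were among the 5 most like the members' mean. Ergic1 is named because it overlaps Dusp1. Srf, Creb1, Nab1 and Nab2 are named as examples of the list of upstream factors, in which no gene passed, and were not picked by their p. The members and lists were chosen with earlier results of these data known. The alternatives were DESeq2 1.42.0, other normalizations and filters, the replicate number as a block, the share of reads on genes or cell type scores as covariates, pseudocounts of 0.5 and 5, leaving out each library and fitting only the 2 groups of a comparison. Splits by the share of reads on genes, and the fit without both libraries over 75%, were chosen after seeing the data. Gene models were taken from GENCODE M21 (GRCm38) and promoters from RefSeq (GRCm38.p6).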

Additional observations from a re-analysis of the deposited data

Results flagged for a closer look

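Egr2 in ZT13 replicate 5 had a count of 0, whereas the nearest of the other 4 libraries of ZT13 had 85.3 normalized counts. On the scale of log2(normalized count + 1) the gap was 0.91 of the range of the group, past Dixon's 95% limit for 5 values. This was 1 of 40 groups of 5 examined (10 members at 4 time points), where chance gives about 2. ZT13 replicate 5 is the deepest library and has 79.9% of its reads on genes.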

How the results depend on the processing

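The number of members past the adjusted threshold, 0 in all 8 edgeR tests, depended on the tool. DESeq2 called 2 among the 4 time points, 1 for the 24-h curve, 2 between ZT13 and ZT1, 1 between ZT19 and ZT1, 1 between ZT13 and ZT7 and 3 between ZT19 and ZT7. In edgeR, total counts alone gave 1 among the 4 time points and 1 between ZT19 and ZT1, the stricter filter gave 1 among the 4 time points, and keratinocyte and fibroblast scores as covariates gave 1, 1 (ZT19 and ZT1) and 3 (ZT19 and ZT7), where that fit called 121, 608 and 1787 of all genes in place of 81, 3 and 3. With 1 library left out, 0 to 1 were called among the 4 time points and 0 to 1 between ZT19 and ZT1, in each case Dusp1 (among the time points without ZT7 replicate 2, ZT13 replicate 3, ZT13 replicate 5 or ZT19 replicate 4, adjusted p 0.0273 to 0.0450). The cause of these changes was not tested. The sample titles do not say whether replicate numbers pair samples of different time points. Same-numbered libraries had a mean correlation of -0.04 to 0.17, and 5 of 20 libraries were closest to their own number. The highest mean was that of ZT13 and ZT1, where the lowest single value was 0.08. With the replicate block 0 members were called, with 31 of all genes among the 4 time points in place of 81. DESeq2 called 672 genes there. Nr4a2 between ZT19 and ZT7 (-0.78) turned to 0.56 with the share of reads as a covariate and to 0.43 over only the libraries of 30% or more, and Ier3 between ZT13 and ZT7 (0.23) to -0.13 without ZT13 replicate 2, in a range of -0.13 to 0.66 with 1 library left out. Of the 45 pairs of members, 9 were called, 0 to 11 with 1 library left out, and 7 within time points (2 with r above 0 and 5 below, in place of 7 and 2). Without the 2 libraries farthest in the first gene of each pair, 3 were called. Of these, Egr1 with Btg2 and Egr1 with Dusp1 were among the 9, and Nr4a2 with Ier3 (r = -0.72, and -0.19 over all libraries) was not. Within the libraries under 30% 1 pair was called, within those of 30% or more 1, and with the log2 odds regressed out 0. Of the 10 relations with the share on genes, 7 were called, 1 to 7 with 1 library left out, and 5 within time points (all but Egr1 and Ier2). Without the 2 libraries of most extreme share 2 were called, Dusp1 (r = 0.73) and Nr4a1 (r = -0.67), and Nr4a1 was not among the 7. Under 30% 0 were called, and at 30% or more 2. By mean log2 value, a quantity other than the fitted difference, the scaling moved the median of all genes between ZT7 and ZT1 from -0.15 (TMM) to 0.22 (total counts), and there 3 and 5 of the 10 members were higher at ZT7. The spread of Egr2 and Nr4a2 between replicates and their low counts limit what could be detected.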
